A study of Mus musculus with 6 samples.

Results

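Interferon-stimulated genes are the genes that a cell switches on when interferon binds its receptors. A set of 37 such genes was taken by name from the 34298 gene names on a mouse gene expression microarray, with earlier results of these data known, and all 37 were found, under 50 probes. The brightest probe of each gene over all arrays stood for the gene, and 13 genes had more than 1 probe. Expression was measured on 6 single-color arrays of organoids, which are self-organizing epithelial cultures grown in a gel. There were 3 arrays of esophagus organoids, labelled squamous by origin, and 3 of stomach organoids, labelled columnar, and each of mice 1, 2 and 4 gave 1 culture of either tissue. All cultures were controls at passage 0, collected on day 8, or on day 7 in the case of the stomach culture of mouse 4. Per the study's methods the wild-type mice were C57BL/6 females, and the stomach cultures were started from glands of the corpus. Both media contained EGF, noggin, FGF-10, a TGF-β receptor kinase inhibitor and a ROCK inhibitor. The stomach medium also had WNT3A- and R-spondin1-conditioned medium and gastrin, whereas the esophagus medium lacked these and had forskolin, so tissue and medium cannot be told apart. The comparison asks how the interferon-stimulated genes of squamous and columnar organoids differ.

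Type I and type III interferons signal through the kinases Jak1 and Tyk2 to a complex that holds Stat2 and Irf9 and binds the interferon-stimulated response element in the promoters of its targets. Type II interferon signals through Jak1 and Jak2 and acts on promoters with the gamma-activated sequence. The targets include RNA sensors that detect viral nucleic acid, enzymes and GTPases that block viral growth, and transcription factors that feed back on the response. Many are expressed at a low level in epithelium without infection.

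The element is visible in the promoters of the genes. Of the 37 genes, 28 matched an entry in the table of RefSeq promoters used here (GRCm38.p6), each taken as 250 bases before to 50 bases after the start of transcription. The core of the response element, searched as GAAA, any 2 bases and GAAA again on both strands with overlapping matches allowed, lay in 15 of 28 (53.6%), against 3.99% of 27025 genes with a window of the same length. Before the start alone it lay in 11 of 28 (39.3%), against 3.46%. The gamma-activated sequence, searched as TTCNNNGAA, which reads the same on both strands, lay in 8 of 28 (28.6%), against 9.55%. Among the matched genes, the first motif was present in 4 of 6 genes called higher in stomach (*Bst2*, *Ddx58*, *Ifih1* and *Oas1a*), in 1 of 2 called higher in esophagus (*Gbp2*) and in 10 of 20 not called. It was therefore found in genes of every class of result. The following 80-base stretches, in the direction of transcription, show it in capitals for 2 genes higher in stomach, 1 gene higher in esophagus and 2 genes that were not called. *Oas1a* lies at chr5:120907526-120907605 on the minus strand, *Bst2* at chr8:71537555-71537634 (minus), *Gbp2* at chr3:142620569-142620648 (plus), *Isg15* at chr4:156200846-156200925 (minus) and *Ifit1* at chr19:34640759-34640838 (plus).
Oas1a: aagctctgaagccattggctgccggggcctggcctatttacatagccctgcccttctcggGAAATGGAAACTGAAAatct
Bst2: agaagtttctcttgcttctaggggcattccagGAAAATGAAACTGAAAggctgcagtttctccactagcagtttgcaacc
Gbp2: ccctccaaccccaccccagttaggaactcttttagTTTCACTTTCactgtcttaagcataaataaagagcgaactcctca
Isg15: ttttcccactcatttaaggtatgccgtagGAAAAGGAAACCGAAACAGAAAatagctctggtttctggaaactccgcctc
Ifit1: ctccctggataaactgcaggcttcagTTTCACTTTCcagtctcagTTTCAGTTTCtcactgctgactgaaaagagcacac
The matches of *Oas1a*, *Bst2* and *Isg15* overlap in tandem, whereas *Ifit1* carries 2 separate copies in the opposite orientation. The first match of *Oas1a* begins 20 bases before the start and that of *Bst2* 130 bases before it. A match describes these letters and does not show that a factor was bound.

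Values are normalised log2 intensities, and a difference is esophagus minus stomach, so a negative one is higher in stomach. A gene was called at a Benjamini-Hochberg adjusted p under 0.05 in limma over all probes. No spot was saturated, and between 45.5% and 47.3% of spots on esophagus arrays and between 46.7% and 51.1% on stomach arrays stood well above background. All 5 squamous markers (such as *Krt5*) were called higher in esophagus and all 6 columnar markers (such as *Tff2*) in stomach, as labelled. Of 11 immune cell markers on the arrays, 5 were well above background on no array, among them *Ptprc*, which all leukocytes carry, and their summed level was 14.31 to 15.57 in esophagus and 14.95 to 15.56 in stomach. Of these, *Cd14* (log2 fold change -3.51) and *Itgam* (-2.62) were called higher in stomach. *Cd68*, which was not called, went the other way (1.63, limma adjusted p = 0.211), at 14.77, 12.94 and 11.80 in esophagus and 11.04, 11.22 and 12.36 in stomach. *Siglech*, also not called (-0.70), was at 13.39 to 14.10 in esophagus and 13.93 to 14.77 in stomach. Their part in the results below was not tested. None of 9 fibroblast and smooth muscle markers was called in limma (1 at an unadjusted p under 0.05), with summed levels of 7.94 to 8.44 in esophagus and 8.07 to 8.10 in stomach. Of 5 endothelial markers, *Vwf* was called higher in stomach, and their summed levels were 8.94 to 9.46 and 9.17 to 9.24.

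Of the interferon-stimulated genes, 20 were well above background on all 6 arrays, 14 on some arrays and 3 (*Ifit2*, *Ifi44* and *Trim30a*) on none. A total of 9 of 37 (24.3%) were called higher in stomach, against 7.71% of all gene names tested and 10.7% of protein-coding names. These were *Oas1a*, *Oas2*, *Oasl2*, *Mx1*, *Bst2*, *Parp14*, *Ddx58*, *Ifih1* and *Irf9*. Only *Gbp2* and *Trim25* (5.41%) were called higher in esophagus, against 7.15% of all names and 9.71% of protein-coding names, and the other 26 were not called. In an organoid culture fewer cells of a type and less RNA per cell cannot be told apart. Without a test, 12 genes (32.4%) had all 3 stomach arrays above all 3 esophagus arrays, against 14.7% of all names and 17.8% of protein-coding names. The opposite order held for 2 genes (5.41%), against 16.9% and 19.9%. The brightest probe was lower in esophagus for 26 of 37, and the median log2 fold change was -0.48, against 0.03 over all names and 0.04 over protein-coding names. With both genes (*Oas3* and *Zbp1*) that were above background only in stomach set to their bounds, the median was again -0.48.

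The count depended on single arrays. Without the esophagus array of mouse 2, or without the stomach array of mouse 1 or of mouse 2, 3 genes were called higher in stomach (*Oas1a*, *Bst2* and *Mx1*). The share of all names called higher in stomach was also lower in these fits, at 5.86%, 5.22% and 5.35% in the same order. Without the esophagus array of mouse 1 the calls of *Oas2*, *Ddx58* and *Irf9* were lost, and without that of mouse 4 those of *Ifih1* and *Irf9*. Without the stomach array of mouse 4 there were 16 calls, all 9 among them, against 8.7% of all names. *Trim25* was called only with all 6 arrays or without the stomach array of mouse 4, among the fits that left out 1 array.

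**Figure D1:**
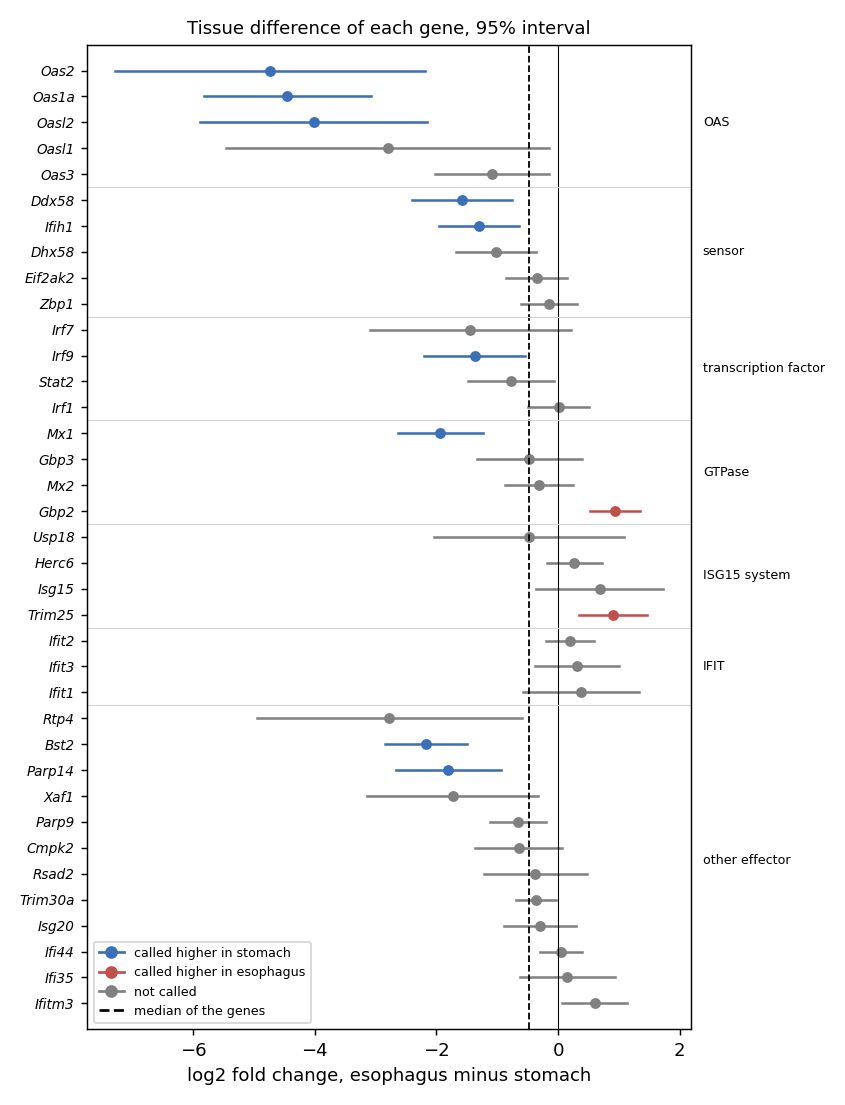
Log2 fold change (esophagus minus stomach) of each of the 37 genes on its brightest probe, ordered by role, with the 95% interval from limma over 3 arrays a tissue. Blue marks the 9 genes called higher in stomach, red the 2 called higher in esophagus and grey the rest; the dashed line is the median of -0.48.

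The oligoadenylate synthetase (OAS) family had the largest median difference of the role groups. These enzymes sense double-stranded RNA and make short oligoadenylates that activate RNase L, and the Oas-like genes are their relatives. All 5 lie on chromosome 5, all 5 differences were negative, and the median was -4.02. A total of 3 were called higher in stomach, against 7.71% of all names and 10.7% of protein-coding names. *Oas1a*, an active synthetase, had log2 intensities of 6.14, 7.20 and 7.73 in the esophagus organoids of mice 1, 2 and 4 and of 12.005, 12.22 and 10.18 in their stomach organoids. The tissues did not overlap, and each stomach array was above every esophagus array by more than 2 log2 units. Its mean was 7.02 ± 0.80 (SD, n = 3) in esophagus and 11.47 ± 1.12 in stomach, a 21.8-fold difference (log2 fold change -4.45, SE 0.59, limma adjusted p = 0.00208). Over all settings this log2 fold change ran from -5.44 to -4.01. A second probe of *Oas1a* gave -4.12 (limma adjusted p = 0.00185). *Oas2*, another synthetase, was at 5.13, 5.07 and 6.44 in esophagus and at 11.37, 12.05 and 7.42 in stomach. It was well above background on 1 esophagus array and on all stomach arrays, and the stomach array of mouse 4 lay more than 3 log2 units below the other stomach arrays. Its difference was -4.73 (SE 1.1, limma adjusted p = 0.0288). With the mouse as a replicate block the call of *Oas2* was lost (adjusted p = 0.0522, and 1.62e-05 to 0.125 over all settings), as it was with mean intensities and a background offset of 50, with quantile normalization of the software's background-subtracted intensity and with the trended and robust eBayes. *Oasl2*, an Oas-like protein with synthetase activity, was at 6.24, 6.18 and 8.12 in esophagus and at 11.54, 11.97 and 9.09 in stomach. Here too the tissues did not overlap, and the arrays of mouse 4 were the nearest to each other (-4.02, SE 0.80, limma adjusted p = 0.0154, and 1.45e-05 to 0.0816 over all settings). The call of *Oasl2* was lost under the same alternatives except the block.

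*Oasl1*, which lacks synthetase activity and represses translation of Irf7, went another way. It was at 14.26, 11.81 and 8.83 in the esophagus organoids of mice 1, 2 and 4 and at 14.64, 14.13 and 14.54 in stomach. The stomach arrays lay close together, whereas esophagus ranged over more than 5 log2 units and reached the stomach level in mouse 1. The difference was -2.80 (SE 1.15, limma adjusted p = 0.185), and it was called without the esophagus array of mouse 1 (-4.11, adjusted p = 0.0141, with 0.0141 to 0.383 over all settings). *Oas3*, a synthetase of long double-stranded RNA, was well above background on no esophagus array and on 2 stomach arrays, at least 1.84-fold higher in stomach (limma adjusted p = 0.148). It was called with the mouse as a replicate block (adjusted p = 0.0412, and 0.0174 to 0.37 over all settings) and also without the stomach array of mouse 4. Binding of transcripts from near-identical copies, such as *Oas1g*, to these probes was not tested.

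**Figure D2:**
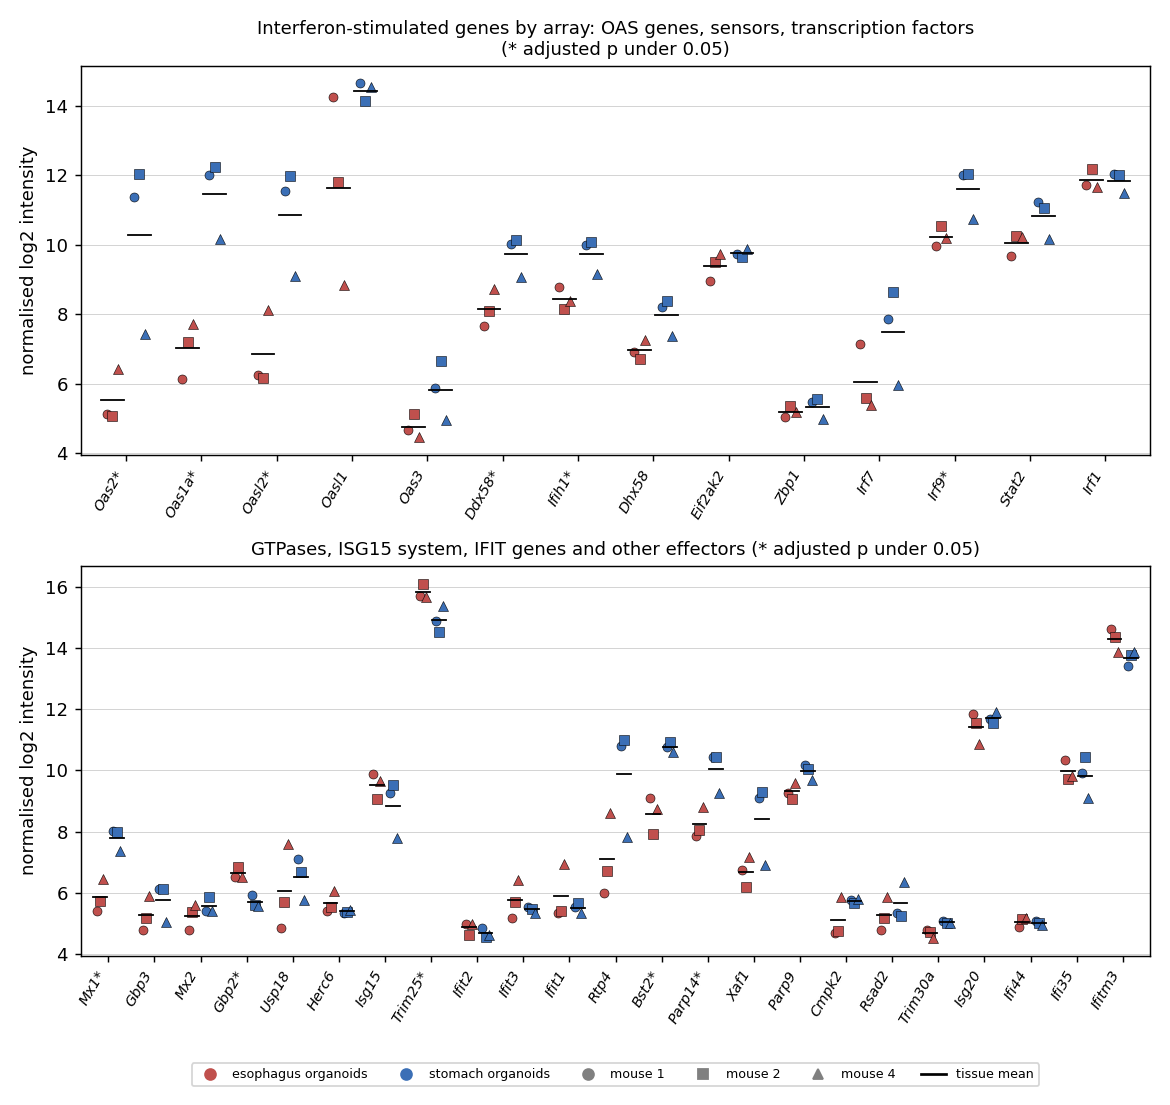
Normalised log2 intensity (vertical axis) of the 37 genes by array, grouped by role, with red for esophagus, blue for stomach, a symbol for each mouse and a bar for the tissue mean; an asterisk marks an adjusted p under 0.05. Among called genes, *Oas1a*, *Oas2* and *Oasl2* have the largest differences between tissue means. The stomach array of mouse 4 (blue triangle) is the lowest stomach array for all 9 genes called higher in stomach.

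Among the sensors, all 5 differences were negative, 2 were called higher in stomach (against 7.71% of all names and 10.7% of protein-coding names) and the median was -1.02. *Ddx58* encodes RIG-I, a receptor of viral RNA ends. Its levels were 7.66, 8.09 and 8.74 in esophagus and 10.02, 10.13 and 9.08 in stomach, with no overlap and a difference of -0.34 within mouse 4 (-1.58, SE 0.35, limma adjusted p = 0.0254). A second *Ddx58* probe gave -1.33 (limma adjusted p = 0.0133). The replicate block took the call of the brightest probe away (adjusted p = 0.0637, and 0.000907 to 0.112 over all settings), as did mean intensities with an offset of 50 and quantile normalization of the software's intensity. *Ifih1* encodes MDA5, the receptor of long double-stranded RNA, and was at 8.80, 8.15 and 8.38 in esophagus and 9.99, 10.08 and 9.16 in stomach. Every stomach array was above every esophagus array (-1.30, SE 0.28, limma adjusted p = 0.0220, and 0.00442 to 0.101 over all settings), and the call was lost with the software's background-subtracted intensity under either scaling. Another *Ifih1* probe, well above background on 1 array only, gave -0.11. *Dhx58*, which encodes LGP2, a relative of both that lacks their signaling domain, was at 6.92, 6.72 and 7.27 in esophagus and 8.21, 8.38 and 7.37 in stomach. It did not overlap between tissues but missed the threshold (-1.02, SE 0.29, limma adjusted p = 0.0592), and without the stomach array of mouse 4 it was called (adjusted p = 0.00719, with 0.00295 to 0.208 over all settings). *Eif2ak2*, the RNA-activated kinase PKR that halts translation, gave -0.35 with a 95% interval of -0.85 to 0.15. *Zbp1*, a sensor of Z-form nucleic acid, was well above background on no esophagus array and on 1 stomach array.

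Among the transcription factors, 1 of 4 was called higher in stomach, against 7.71% of all names and 10.7% of protein-coding names. *Irf9*, the DNA-binding part of the complex with Stat2, had levels of 9.96, 10.53 and 10.19 in esophagus and 12.01, 12.03 and 10.73 in stomach. The lowest stomach array, of mouse 4, was just above the highest esophagus array (-1.37, SE 0.36, limma adjusted p = 0.0458, and 0.0019 to 0.174 over all settings). The call of *Irf9* was lost with mean intensities and an offset of 50, with the software's intensity under either scaling and with the mean of the probes. *Irf9* had only 1 probe, so its own values were unchanged in the last of these fits. *Stat2*, its partner, was at 9.68, 10.25 and 10.21 in esophagus and 11.24, 11.04 and 10.17 in stomach, and the tissues overlapped through mouse 4 (-0.77, SE 0.30, limma adjusted p = 0.165). *Irf7*, the factor that amplifies interferon production, was at 7.15, 5.61 and 5.40 in esophagus and 7.87, 8.64 and 5.96 in stomach, and did not pass (-1.44, SE 0.71, limma adjusted p = 0.278). Without the stomach array of mouse 4, *Stat2* (adjusted p = 0.0209, with 0.0209 to 0.429 over all settings) and *Irf7* (0.0401, with 0.0401 to 0.617) were called. *Irf1*, which many stimuli induce and which acts in the response to type II interferon, was nearly level, with means of 11.85 ± 0.28 (SD, n = 3) in esophagus and 11.84 ± 0.30 in stomach (95% interval of the difference -0.49 to 0.51).

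Of the 4 GTPases, 1 was called in each direction, against 7.71% of all names in stomach and 7.15% in esophagus. *Mx1*, which blocks influenza viruses in the nucleus, was at 5.40, 5.74 and 6.45 in esophagus and 8.03, 7.99 and 7.35 in stomach. The tissues were apart in every mouse, with differences of -2.64, -2.26 and -0.91, and *Mx1* was 3.82-fold higher in stomach (-1.93, SE 0.30, limma adjusted p = 0.00486). It was well above background on 2 of 3 esophagus arrays, and the log2 fold change ran from -3.10 to -1.46 over all settings. C57BL mice are known to carry a defective *Mx1* protein, which the array does not measure. *Gbp2*, a guanylate-binding protein induced mainly by type II interferon, was at 6.53, 6.85 and 6.52 in esophagus and 5.94, 5.59 and 5.56 in stomach. It was higher in esophagus in all 3 mice, by 1.91-fold (0.94, SE 0.18, limma adjusted p = 0.0112). The log2 fold change ran from 0.72 to 1.97 over all settings, and 2 of 3 stomach arrays were well above background. The call of *Gbp2* was lost without the stomach array of mouse 2 (adjusted p = 0.0570, with 0.00629 to 0.0570 over all settings). Its relative *Gbp3* (-0.47) and *Mx2* (-0.31), an antiviral relative of *Mx1*, were not called and were above background on only 3 of 6 arrays each. A second *Mx2* probe, above background on no array, gave 0.32.

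The ISG15 system, in which the ubiquitin-like protein Isg15 is attached to other proteins, gave 1 call among 4 genes, higher in esophagus (against 7.15% of all names). *Isg15* itself was at 9.89, 9.07 and 9.65 in esophagus and 9.25, 9.53 and 7.78 in stomach. The tissues overlapped except for the low stomach array of mouse 4, and the difference was not called (0.69, SE 0.45, limma adjusted p = 0.431). *Usp18*, the protease that removes Isg15 and dampens the type I receptor, was at 4.84, 5.69 and 7.60 in esophagus and 7.12, 6.69 and 5.76 in stomach. Its order turned between mice, with a difference of -2.28 in mouse 1 and of 1.85 in mouse 4 (limma adjusted p = 0.75). *Herc6*, the mouse ligase that attaches Isg15, gave 0.27 with a 95% interval of -0.19 to 0.72. *Trim25*, a ubiquitin ligase that acts on RIG-I, was at 15.70, 16.10 and 15.68 in esophagus and 14.89, 14.53 and 15.36 in stomach on its brightest probe. All esophagus arrays were higher on that probe (0.90, SE 0.24, limma adjusted p = 0.0480). A second *Trim25* probe, to another transcript, was at 13.58, 12.47 and 12.63 in esophagus and 14.19, 14.04 and 13.83 in stomach, so that all stomach arrays were higher (-1.13, SE 0.29, limma adjusted p = 0.0449). The direction of *Trim25* therefore depends on the probe, and the call of the brightest probe was also lost with the mouse as a replicate block (adjusted p = 0.0954, and 0.0150 to 0.756 over all settings).

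The IFIT genes, among them *Ifit1*, whose product binds viral RNA lacking the host cap methylation, had low signals. Well above background were 2 esophagus and 2 stomach arrays for *Ifit1*, 2 and 3 for *Ifit3*, and none for *Ifit2*. *Ifit1* was at 5.33, 5.40 and 6.94 in esophagus and 5.53, 5.67 and 5.34 in stomach, and *Ifit3* at 5.17, 5.70 and 6.43 against 5.55, 5.47 and 5.36. For both, the esophagus array of mouse 4 was the highest of the 6, and the other arrays overlapped. None of the 3 was called in limma, and none had an unadjusted p under 0.05, with differences of 0.38 (*Ifit1*), 0.31 (*Ifit3*) and 0.19 (*Ifit2*). The promoter of *Ifit1* printed above carries 2 copies of the response element, as many matches as that of *Oas1a*.

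Of the 12 other effectors, 2 were called, both higher in stomach, where 7.71% of all names and 10.7% of protein-coding names were called. *Bst2* (tetherin), which holds budding virus on the cell surface, was at 9.10, 7.93 and 8.75 in esophagus and 10.77, 10.92 and 10.60 in stomach. Its stomach arrays had the least spread of the 9 genes called higher in stomach, and it was 4.51-fold higher there (-2.17, SE 0.29, limma adjusted p = 0.00214). *Parp14*, an ADP-ribosyltransferase, was at 7.86, 8.06 and 8.80 in esophagus and 10.43, 10.43 and 9.27 in stomach. There was no overlap, with the smallest gap in mouse 4 (-1.80, SE 0.37, limma adjusted p = 0.0172, and adjusted p = 0.0503 with the mouse as a replicate block, in a range of 0.000253 to 0.0824 over all settings). The call of *Parp14* was also lost with quantile normalization of the software's intensity. *Parp9*, the partner of the ligase Dtx3l, had all stomach arrays above all esophagus arrays without a call (-0.66, SE 0.20, limma adjusted p = 0.0785). A second *Parp9* probe, well above background on 2 esophagus arrays and 1 stomach array, gave 0.20 (limma adjusted p = 0.793).

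*Rtp4* and *Xaf1* showed large differences that mouse 4 did not share. *Rtp4*, a chaperone of receptors that also restricts viruses, was at 5.98, 6.72 and 8.60 in esophagus and 10.80, 10.98 and 7.83 in stomach. Stomach was higher by more than 4 log2 units in mice 1 and 2 and lower by 0.76 in mouse 4 (-2.77, SE 0.94, limma adjusted p = 0.111). *Xaf1*, a promoter of cell death, was at 6.73, 6.18 and 7.16 in esophagus and 9.09, 9.29 and 6.90 in stomach, again reversed in mouse 4 (-1.73, SE 0.60, limma adjusted p = 0.122). A second *Xaf1* probe, well above background on no array, gave 0.07. Without the stomach array of mouse 4 both were called (*Rtp4* adjusted p = 0.0134, with 0.000106 to 0.334 over all settings, and *Xaf1* 0.00202, with 0.000566 to 0.356). *Ifitm3*, which blocks virus entry in endosomes, was well above background on all arrays and gave 0.60 (95% interval 0.07 to 1.14, limma adjusted p = 0.158). The exonuclease *Isg20* gave -0.30 (95% interval -0.89 to 0.30) and *Ifi35*, an interferon-induced leucine zipper protein, 0.15 (-0.63 to 0.93). *Cmpk2*, a nucleotide kinase, and its neighbor *Rsad2* (viperin), which makes a chain-terminating nucleotide, gave -0.65 and -0.37 near background. Without the esophagus array of mouse 4, *Cmpk2* was called higher in stomach (-1.03, limma adjusted p = 0.00639, with 0.00639 to 0.521 over all settings), as was *Parp9* (adjusted p = 0.0495, with 0.018 to 0.591), and *Ifitm3* was called higher in esophagus (adjusted p = 0.0498, with 0.0364 to 0.414). *Parp9* was also called without the stomach array of mouse 4. The 2 genes that were above background on no array here, *Ifi44* and *Trim30a*, gave 0.05 and -0.36.

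The genes differed between mice as well as between tissues. The median difference within a mouse was -0.76 in mouse 1, -0.91 in mouse 2 and -0.001 in mouse 4, whereas over all gene names it was 0.02, 0.01 and 0.05. For the 9 genes called higher in stomach the medians were -2.57, -2.37 and -0.91, and the difference was smallest in mouse 4 for 8 of them. Across the 37 genes, 17 (45.9%) were lower in esophagus in all 3 mice and 4 (10.8%) were higher in all 3, against 21.1% and 25.2% of all names and 23.7% and 28.4% of protein-coding names.

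**Figure D3:**
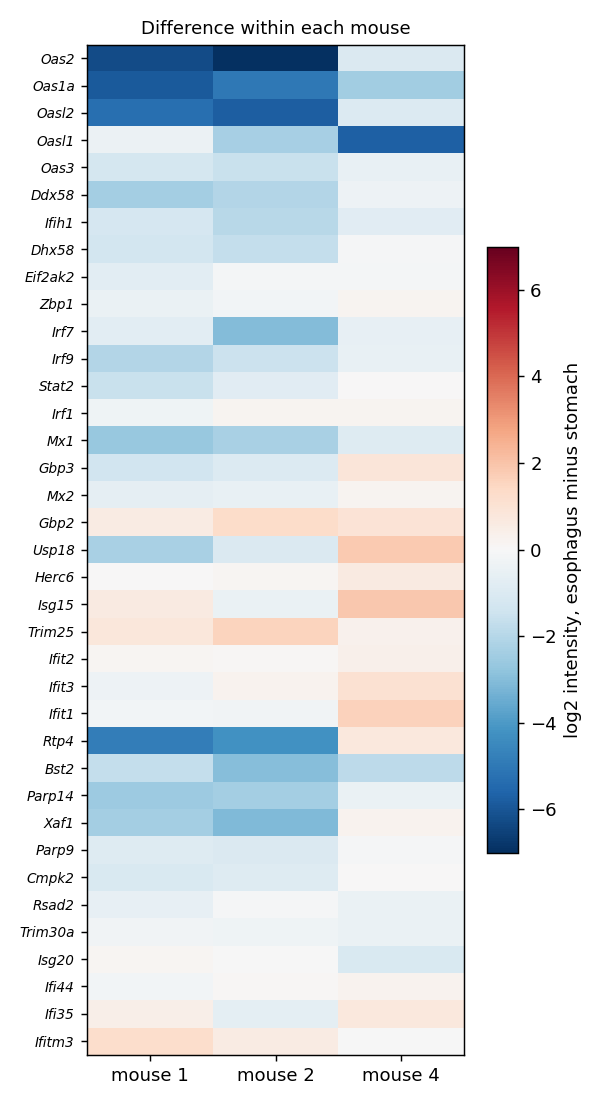
Difference in log2 intensity (esophagus minus stomach) within mice 1, 2 and 4 for each of the 37 genes, with blue for higher in stomach and red for higher in esophagus. Among the 9 genes called higher in stomach the difference is smallest in mouse 4 for 8, whereas *Oasl1*, which was not called, is at -5.70 there.

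Both arrays of mouse 4 stood apart from the other mice. Its stomach array was the lowest of the stomach arrays for 28 of 37 genes (75.7%), against 37.9% of all names and 35.6% of protein-coding names, and for all 9 genes called higher in stomach. Its esophagus array was the highest of the esophagus arrays for 20 of 37 (54.1%), against 37.4% and 39% in the same order, and for 6 of those 9. The median deviation from the other mice was -0.53 on the stomach array and 0.42 on the esophagus array, and 0.01 on both over all names. The stomach organoids of mouse 4 were also the ones harvested on day 7, so the mouse and the day cannot be told apart. The esophagus array of mouse 4 was the only one on its slide. With the arrays of mice 1 and 2 alone, 18 genes were called higher in stomach and 3 in esophagus, against 9.25% and 8.46% of all names, a setting chosen after the values had been seen.

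**Figure D4:**
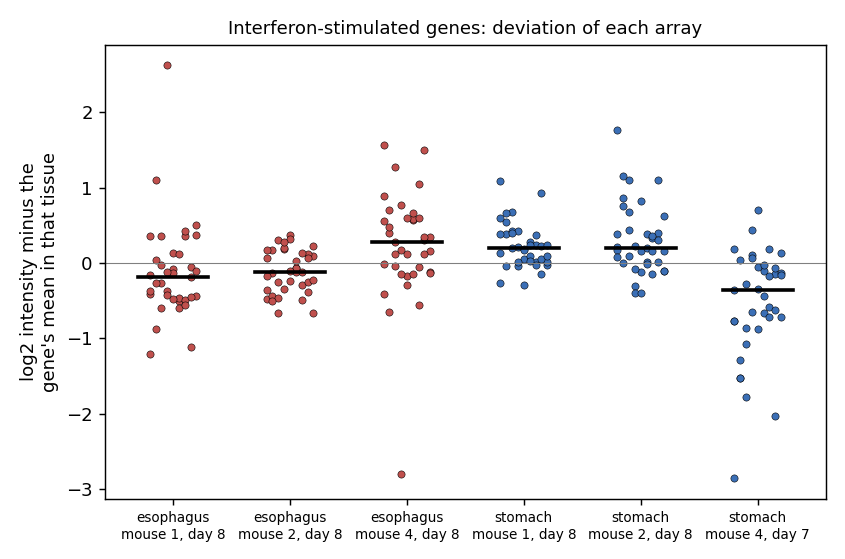
Deviation of each of the 37 genes from its mean over the 3 arrays of that tissue (log2 intensity), by array, with the median as a bar. Medians were -0.18, -0.12 and 0.28 for the esophagus organoids of mice 1, 2 and 4 and 0.20, 0.20 and -0.35 for their stomach organoids, and 29 of 37 genes lay below the tissue mean on the stomach array of mouse 4.

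Other genes of the pathway were read from lists of 139 genes on the arrays, 74 of them further interferon-stimulated genes, and 33 of the 139 (23.7%) were called higher in stomach and 11 (7.91%) in esophagus. Of all names 7.71% were called higher in stomach and 7.15% in esophagus, and of protein-coding names 10.7% and 9.71%, and the counts of each list below stand against these shares. Without the stomach array of mouse 1 or of mouse 2 the 44 calls became 28 or 29, in fits that called 5.22% or 5.35% of all names higher in stomach and 3.93% or 3.94% in esophagus. Of 16 interferon genes, 10 were well above background on no array and none was called in limma (3 had an unadjusted p under 0.05). *Ifnl3*, a type III interferon, was at 8.87, 8.28 and 5.56 in esophagus and 5.07, 5.36 and 5.64 in stomach. Esophagus was high in mice 1 and 2 and at the stomach level in mouse 4 (2.21, SE 0.76, limma adjusted p = 0.115). *Ifnk*, a type I interferon of keratinocytes, gave -0.94 (limma adjusted p = 0.0512), and *Ifnb1* and *Ifng* were above background on no array.

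Receptor genes were higher in stomach for type II and type III interferon, and 5 of 9 genes (55.6%) of the receptor and kinase list were called, all in that direction. *Ifnlr1*, the specific subunit of the type III receptor, was at 9.61, 9.56 and 9.63 in esophagus and 11.67, 11.28 and 11.28 in stomach. Arrays within a tissue were close, mouse 4 included (-1.81, SE 0.16, limma adjusted p = 2.27e-04). Its partner *Il10rb*, shared with interleukin receptors, gave -1.49 (SE 0.17, limma adjusted p = 8.2e-04). Both type II receptor subunits were also higher in stomach, *Ifngr1* by 1.55 (SE 0.33, limma adjusted p = 0.0201) and *Ifngr2* by 1.49 (SE 0.26, limma adjusted p = 0.0076). The type I subunits *Ifnar1* (-0.14, 95% interval -0.47 to 0.19) and *Ifnar2* (-0.14, -0.76 to 0.47) were not called. Among the kinases, *Jak2* was called (-0.61, SE 0.14, limma adjusted p = 0.0283), whereas *Jak1* (0.52) and *Tyk2* (-0.67) were not.

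**Figure D5:**
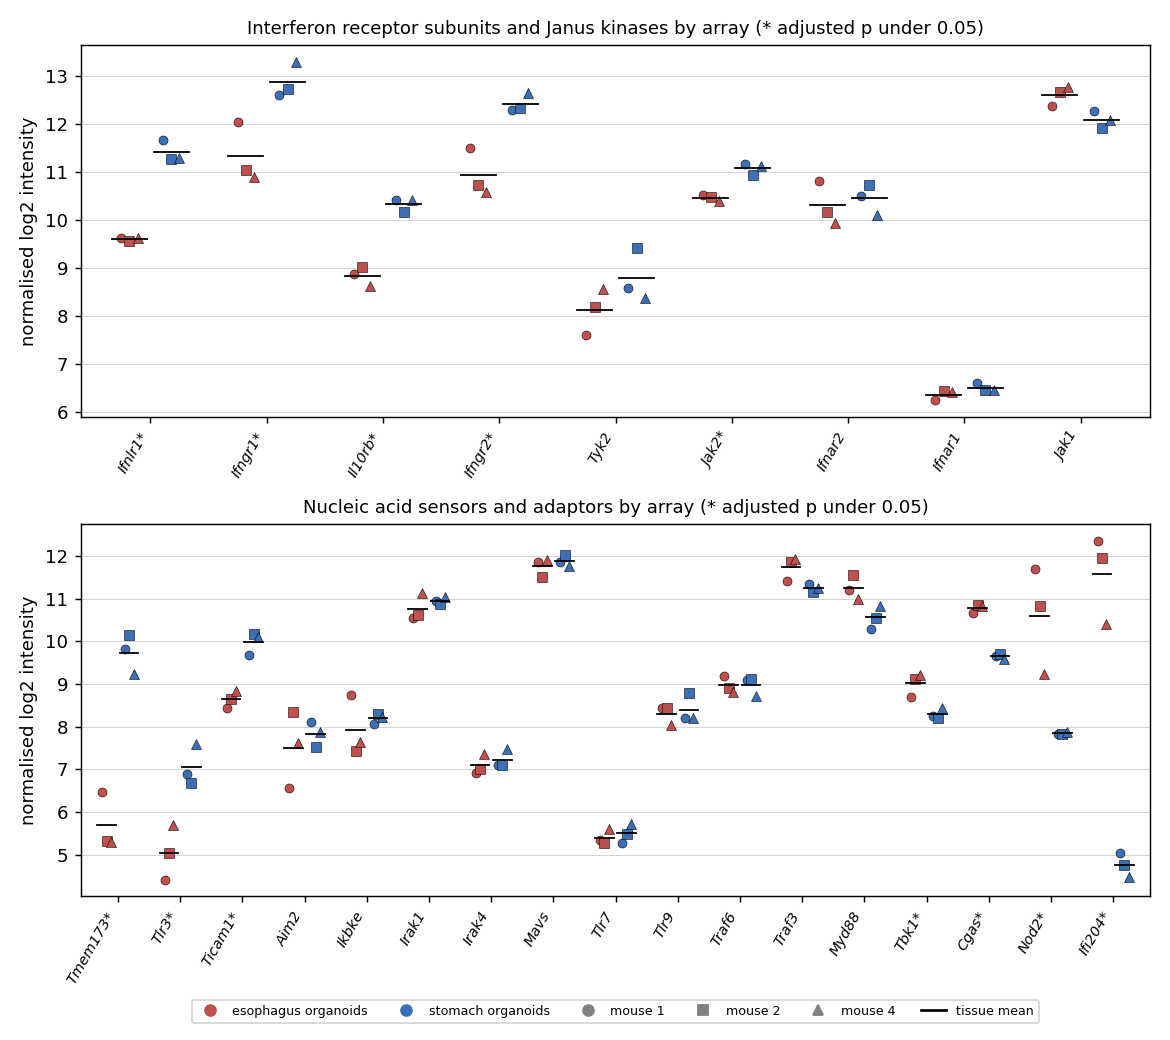
Normalised log2 intensity by array of 9 receptor and kinase genes (upper panel) and of 17 nucleic acid sensors and adaptors (lower panel), with red for esophagus, blue for stomach, a symbol for each mouse, a bar for the tissue mean and an asterisk for an adjusted p under 0.05. *Ifnlr1* and *Il10rb* separate the tissues in every mouse, while *Tmem173* and *Ifi204* lie at opposite ends of the sensor list.

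Sensors and adaptors outside the 37 genes differed in both directions, with 3 of 17 (17.6%) called higher in stomach and 4 (23.5%) in esophagus. *Tmem173*, which encodes the adaptor STING, was at 6.48, 5.33 and 5.30 in esophagus and 9.82, 10.15 and 9.25 in stomach (-4.04, SE 0.36, limma adjusted p = 2.55e-04), and was well above background on 1 of 3 esophagus arrays. *Cgas*, whose product makes the dinucleotide that activates STING, had the opposite order (1.14, SE 0.14, limma adjusted p = 0.00135). The pair of genes for DNA sensing thus differed in opposite directions. *Tlr3*, an endosomal receptor of double-stranded RNA (-1.997, also above background on 1 of 3 esophagus arrays), and its adaptor *Ticam1* (-1.33) were called higher in stomach. *Nod2* (2.74), a sensor of bacterial peptidoglycan, and *Ifi204* were called higher in esophagus, as was the kinase *Tbk1* (0.72). *Ifi204*, a DNA sensor of the interferon-inducible p200 family, was at 12.35, 11.96 and 10.40 in esophagus and above background on no stomach array, at least 101-fold higher in esophagus.

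Transcription factors were called in both directions. *Irf8* (-4.02, above background on 2 of 3 esophagus arrays) and *Batf2* (at least 3.33-fold), both known from myeloid cells, were higher in stomach. *Irf5* (3.00) and *Nfkb1* (0.92) were higher in esophagus. Among 14 negative regulators, the ubiquitin ligase gene *Rnf125* (at least 7.64-fold) and *Irf2bp2* (-1.41) were called higher in stomach and *Nlrx1* (2.75), a mitochondrial regulator, in esophagus.

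Of 74 further interferon-stimulated genes, 21 (28.4%) were called higher in stomach, 4 (5.41%) in esophagus and 49 not, with a median of -0.27. The share of all names was 7.71% and 7.15% in the same order. By fitted value, the 3 largest called differences toward stomach were those of *Lgals9*, a galectin, *Ifi27l2b* (at least 32.4-fold) and *Samd9l* (-5.21), an antiviral factor. *Ifi27l2b* was at 11.09, 10.58 and 8.33 in stomach, so its bound depends on the low array of mouse 4. *Lgals9* gave -6.02 and was well above background on 1 of 3 esophagus arrays, so that its esophagus level, and with it its rank, is uncertain. *Samd9l* was at 6.63, 6.12 and 6.31 in esophagus and 11.41, 11.68 and 11.60 in stomach, with mouse 4 level with the others. Toward esophagus the largest called ones were *Casp1*, the inflammasome protease, *Phf11d* (2.38) and *Ifi203* (at least 4.51-fold), another gene of the p200 family. *Casp1* was at 12.77, 12.70 and 13.34 in esophagus and above background on no stomach array, at least 221-fold higher in esophagus. Over these 74 genes the stomach array of mouse 4 was the lowest stomach array for 47 (63.5%) and its esophagus array the highest for 30 (40.5%). Of all names these shares were 37.9% and 37.4%, and of protein-coding names 35.6% and 39%, so that the esophagus share was near the background. The within-mouse medians of these genes were -0.43, -0.50 and -0.17 in mice 1, 2 and 4.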

How the data were processed

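RNA from 6 organoid cultures, 1 of each tissue from each of 3 mice, was hybridized to single-color Agilent arrays. The authors read spot intensity with Feature Extraction (11.5.1.1, per the file headers). The deposited log2 table was background corrected and quantile normalized by the authors. Its offset is not given in the sources used here. Normexp with offset 15 on median intensities, then quantile normalization, came within 0.132 of these values everywhere, at a median absolute difference of 0.00675. All 2029 empty cells were outlier-marked spots.

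Spots were averaged per probe, and 55681 non-control probes were fitted in R 4.3.3 with limma 3.58.1 (lmFit, eBayes, no block, Benjamini-Hochberg over all probes). The brightest probe by mean over 6 arrays stood for a gene. A gene below background in a whole tissue is given as a bound against the lowest signal well above background on each array. With 3 against 3 arrays an exact permutation test cannot go below p = 0.1. The number of arrays limits the precision. Arrays of a tissue came from separate mice, so p-values measure the spread between mice within 1 culture each.

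The mouse number in the labels pairs the arrays. Deviations of the paired arrays from their tissue means correlated with r = 0.025, 0.012 and -0.008, against -0.073 to 0.04 between different mice. By rule, the text names all 37 genes, all of the receptor list, and the 3 largest called changes in each direction of every other list. Some genes beyond this rule (*Ifnl3*, *Ifnk*, *Ifnb1*, *Ifng*, *Tbk1* and *Samd9l* by array) were chosen after their values were seen. The members and lists were chosen with earlier results of these data known. The fit was tested on simulated data. Alternatives were normexp on mean intensities (offset 16 or 50) or median intensities (offset 15), the intensity as background-subtracted by the software, either quantile normalized or scaled to the 75th percentile, leaving out dim probes, averaging probes, a trended and robust eBayes, a block for the mouse or for the slide, each array left out, the methods' threshold (unadjusted p under 0.05 and 1.5-fold) and, chosen after seeing the data, mice 1 and 2 only. Probe coordinates name no build, and 288 of chromosome 7 start past the last GRCm38 gene, so none are printed. Promoters are those of RefSeq on GRCm38.p6. The lists leave out a pathway gene, which is not reported here.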

Additional observations from a re-analysis of the deposited data

How the results depend on the processing

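*Oas1a* and *Bst2* were called under every setting run, and *Mx1* under all but quantile normalization of the software's background-subtracted intensity. The count higher in stomach, 9 in the report, was 5 with normexp on mean intensities and offset 50 (against 6.85% of all names). With that quantile normalization it was 2 of 37, near the share of all names (6.37%). The count was 16 by unadjusted p and 1.5-fold (against 10.7% of all names) and 18 with mice 1 and 2 only (against 9.25%). With 1 array left out it was 3 to 16 (against 5.22% to 8.7%). The count higher in esophagus was 1 with mean intensities and offset 50 (against 6.3% of all names) and with that quantile normalization (5.89%). It was also 1 with the mean of the probes (7.1%) and with the mouse as a replicate block (6.48%). With 1 array left out it was 0 to 2 (against 3.93% to 7.61%). With the replicate block 7 genes were called higher in stomach (against 7.14% of all names), and 6 of them were among the 9. The block changed the calls of *Oas2*, *Ddx58*, *Parp14*, *Trim25* and *Oas3* and of no other of the 37 genes. The 44 calls in the other lists ranged from 28 to 54 with 1 array left out. The median was -0.99 with mice 1 and 2 only and -0.80 to -0.42 with 1 array left out. The software's background-subtracted intensity scaled to the 75th percentile moved the median of all names to 0.19 and gave a median of -0.80. The slide as a block is the fit without the esophagus array of mouse 4. With 1 array left out, a tissue with 2 arrays shares the spread estimate of the other.

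The differences of 9 genes changed sign, that of the called gene *Trim25* among them. *Irf1* was -0.027 with mean intensities and offset 16, -0.026 with mean intensities and offset 50, -0.0026 with the quantile normalization of the software's intensity, -0.064 with the mean of the probes and -0.076 with mice 1 and 2 only, and ran from -0.17 to 0.10 with 1 array left out. With the mean of the probes *Mx2* was 0.0061 and *Trim25* -0.11. With mice 1 and 2 only *Ifi35* was -0.13, *Ifi44* -0.044, *Ifit1* -0.23, *Ifit3* -0.073 and *Isg20* 0.073. With the slide as a block *Ifi44* was -0.0084, *Ifit1* -0.15 and *Ifit3* -0.022. With 1 array left out the ranges were -0.20 to 0.46 for *Ifi35*, -0.0084 to 0.14 for *Ifi44*, -0.15 to 0.66 for *Ifit1*, -0.022 to 0.61 for *Ifit3* and -1.26 to 0.12 for *Usp18*. Over the values of single genes under all settings, 517 kept direction and side of the threshold, 54 lost the call and 26 gained one. A further 23 changed sign, and the cause of these changes was not tested. Signal over background limits the 14 genes above it on some arrays and the 3 above it on none.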

Other observations

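A few interferon-stimulated genes of the wider list varied widely between the esophagus organoids of the 3 mice. *Cd274*, which encodes PD-L1, was at 10.65, 7.12 and 5.81 in the esophagus organoids of mice 1, 2 and 4 and above background on no stomach array. *Ifi205*, of the p200 family, was at 9.77, 5.87 and 5.12 there, with mouse 1 far above the others, and likewise above background on no stomach array. *Cxcl10*, a chemokine, had the opposite order over the mice, at 5.25, 7.30 and 9.12. None of them was called (limma adjusted p = 0.179, 0.318 and 0.278), and they were chosen after their values had been seen.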
